A study of Mus musculus with 8 samples.

Results

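Polycomb complexes silence developmental genes by modifying histones. Polycomb repressive complex 2 (PRC2) methylates histone H3, and PRC1 ubiquitinates histone H2A. In embryonic stem cells (ESCs) both complexes occupy CpG-rich promoters of genes that are needed only after differentiation begins, among them the *Hox* genes. The RNA levels of 10 genes that encode subunits of these complexes are described here in mouse ESCs depleted of ZZZ3 or YEATS2. The genes were chosen by name from 55401 counted genes: *Ezh1*, *Ezh2*, *Eed*, *Suz12*, *Mtf2* and *Jarid2* of PRC2, and *Rnf2*, *Ring1*, *Pcgf6* and *Cbx7* of PRC1. These genes and the lists further on were chosen with earlier results of these data known. All 10 members passed the filter on low counts, as did 17532 genes in all.

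ZZZ3 and YEATS2 belong to the Ada-two-A-containing (ATAC) complex, a coactivator that acetylates histones. The depleted cells carried one of these proteins fused to an auxin-inducible degron, a tag that marks a protein for degradation once auxin is added, and received 500 µM auxin for 24 h. There were 3 libraries labelled Zzz3 auxin, 3 labelled Yeats2 auxin and 2 labelled Control. Per the labels, all cells grew on gelatin with serum, LIF and 2i, the latter being inhibitors of MEK and GSK3, and under G418, which selects for Tir1, the plant protein that recognises the degron. For the controls the labels give neither the line nor whether auxin or solvent was added, and the same controls serve both lines. The supplement of the study sets auxin against solvent within ZZZ3-AID and within YEATS2-AID cells for its own estimates, without tying either control library to a line. From the labels, effects of auxin, of the tagged line and of the depletion cannot be told apart in a comparison with Control. The labels do not say whether libraries of a group came from separate cultures, and P values measure the spread between these libraries alone.

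Reads assigned to genes numbered 14315120 (Zzz3 auxin 3) to 27884704 (Yeats2 auxin 2) per library. The *Zzz3* transcript stood at 186 and 182 CPM (read counts scaled by TMM library size) in the controls, 77.5, 96.9 and 112 with Zzz3 auxin and 189, 183 and 191 with Yeats2 auxin. Zzz3 auxin was thus below every other library (log2 FC -0.95, SE 0.14, edgeR adjusted *P* = 0.0187). *Yeats2* stood at 90.9 and 95.8 CPM in the controls and 77.3, 103 and 43.7 with Yeats2 auxin, and these groups overlapped. With Zzz3 auxin it stood at 133, 119 and 123 CPM, above every other library (log2 FC 0.42 against Control, not called by edgeR). The degron acts on protein, so neither transcript measures the depletion. All 15 pluripotency markers examined averaged at least 1 CPM, and their summed level was 6185 to 6452 CPM in Control, 5440 to 6214 in Zzz3 auxin and 5659 to 6369 in Yeats2 auxin. The sum hides opposite directions, and *Tfcp2l1* alone averaged 2109 CPM. *Pou5f1* stood at 275 and 420 CPM in the controls and 460 to 592 in the auxin libraries, *Nanog* at 772 and 736 and 561 to 684. Log2 FCs were above 0 for 4 and below 0 for 11 markers with Zzz3 auxin, and for 7 and 8 with Yeats2 auxin. Of these markers edgeR called 0, and DESeq2 called *Pou5f1* for Zzz3 auxin. Of 8 fibroblast markers 1 averaged at least 1 CPM, *Dcn* was at 0 in every library, and the sum was 7.06 to 9.84, 7.48 to 12.4 and 7.53 to 10.0 CPM in the 3 groups. In such bulk samples fewer cells of a type and less RNA per cell cannot be told apart.

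A pair of libraries stood apart in base composition. The median log2 level of GC-rich genes (GC of at least 54.2%) relative to GC-poor genes (at most 44.9%), taken against the mean of all libraries, was -0.59 in Control 1 and 0.44 with Zzz3 auxin 3, and -0.07 to 0.15 in the other 6 libraries. Estimates are therefore also given after correction for GC content and exon length in each library, and without both libraries. Any estimate that leaves out a control rests on 1 control, whose spread is assumed to be that of the other groups.

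Promoter sequence is shown for the member with the lowest log2 FC in both comparisons with Control, *Suz12*, and for *Cdkn2b*, a Polycomb target described further on. The 250 bases upstream of the RefSeq transcription start on GRCm38.p6 are printed in lower case, 5′ to 3′ on the strand of the gene, with each CG in capitals. The motif searched was CG, which reads the same on both strands. The first sequence is chr11:79992856-79993105 on the + strand, and the second chr4:89311033-89311282 on the - strand, whose last 7 bases lie within the gene as GENCODE annotates it.
Suz12: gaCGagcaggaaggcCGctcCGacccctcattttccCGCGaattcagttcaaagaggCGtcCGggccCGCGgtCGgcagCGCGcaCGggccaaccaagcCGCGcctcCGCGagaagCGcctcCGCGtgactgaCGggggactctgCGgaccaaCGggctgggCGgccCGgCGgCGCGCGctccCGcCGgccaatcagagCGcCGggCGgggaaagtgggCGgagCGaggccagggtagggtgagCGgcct
Cdkn2b: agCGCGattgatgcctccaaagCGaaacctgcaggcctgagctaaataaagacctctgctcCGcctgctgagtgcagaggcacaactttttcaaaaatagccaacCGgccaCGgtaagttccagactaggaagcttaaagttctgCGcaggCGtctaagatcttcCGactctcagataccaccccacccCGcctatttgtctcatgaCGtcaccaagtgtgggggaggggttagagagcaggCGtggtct
The *Suz12* window held 37 CG, a number reached by 2.20% of 32851 promoter windows of this length, whose median was 6. *Cdkn2b* held 12 CG, a number reached by 33.5% of windows. Among the members *Ring1* came next to *Suz12* with 30 CG (5.94% of windows), and the other 8 held 12 to 23. The RefSeq start lies 38473 bases from the GENCODE gene start for *Cbx7*, 1300 for *Jarid2*, 311 for *Ezh2* and at most 36 for the other 7 members, so that these windows are those of 1 start per gene.

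Levels between genes were compared per kilobase of exon. *Mtf2* was highest with a mean of 180 CPM per kb over the 8 libraries, followed by *Suz12* with 115, *Eed* with 83.0 and *Rnf2* with 66.0. *Jarid2* (28.3), *Pcgf6* (23.7), *Ezh2* (22.7) and *Cbx7* (21.7 CPM per kb) formed a middle group, and *Ezh1* (5.94) and *Ring1* (1.89 CPM per kb) were lowest. In each paralog pair 1 gene thus predominated at the RNA level: *Ezh2* over *Ezh1* among the methyltransferases, and *Rnf2* over *Ring1* among the ubiquitin ligases. The library ranges of neighbours in this order were separate between *Mtf2* and *Suz12*, *Rnf2* and *Jarid2*, *Cbx7* and *Ezh1*, and *Ezh1* and *Ring1*, and overlapped for the other 5 neighbouring pairs. *Ring1* rested on 80 to 212 reads per library.

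**Figure D1:**
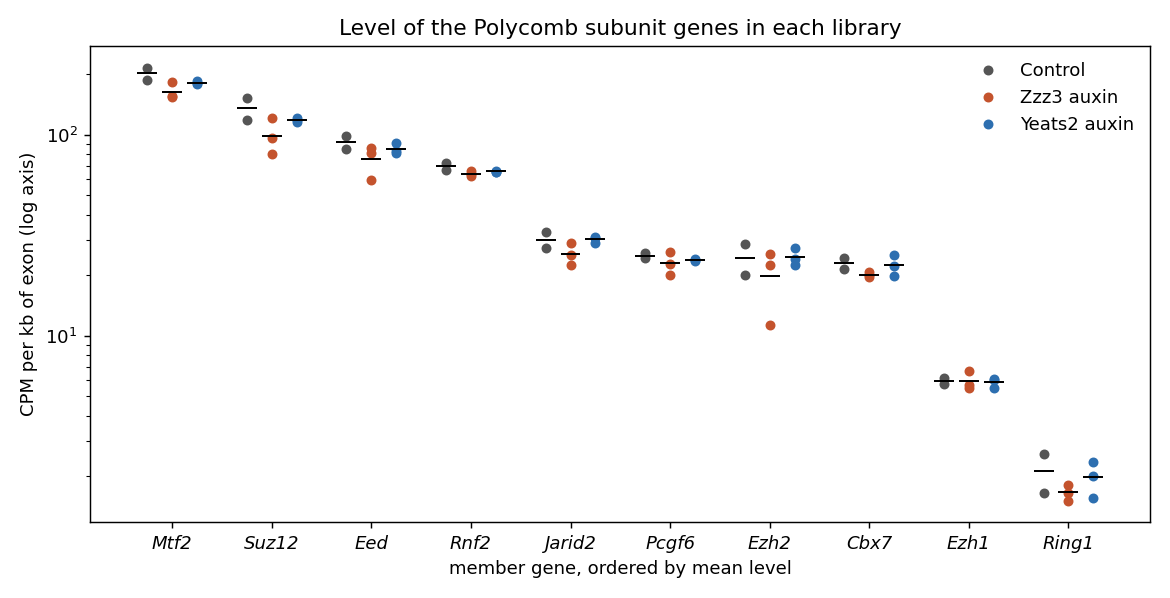
Level of the 10 Polycomb subunit genes in CPM per kb of exon (log axis), with 1 point per library and a bar for the group mean (2 Control, 3 Zzz3 auxin and 3 Yeats2 auxin libraries). Genes span a range from *Mtf2* (mean 180) to *Ring1* (1.89), whereas the groups of each gene lie close together, with *Ezh2* of Zzz3 auxin 3 as the lowest point of its gene.

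No member passed the test in any comparison. After ZZZ3 depletion 0 of 10 were called at edgeR adjusted *P* < 0.05, where 0.753% of all 17532 genes were. After YEATS2 depletion 0 of 10 were called, against 0.445% of all genes, and between both depletions 0 of 10, against 0% (0 genes). At an unadjusted *P* < 0.05 the members numbered 2 (*Suz12* and *Mtf2*), 0 and 0, and genes in all 3804 (21.7%), 2565 (14.6%) and 1095 (6.25%). DESeq2 and limma-voom with sample quality weights likewise called 0 members in each comparison. DESeq2 called 1079, 398 and 3 genes in all.

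Zzz3 auxin gave an estimate below 0 for 9 of the 10 members, with a median log2 FC of -0.26. Over all genes 48.9% of estimates were below 0 and the median was 0.01. All 3 libraries were below both controls for *Mtf2*, *Rnf2* and *Cbx7*, that is 3 of 10, whereas 18.9% of all genes showed such a separation. With Yeats2 auxin 8 of 10 members had an estimate below 0, against 51.1% of all genes, but their median was -0.08 (all genes -0.01). Here *Mtf2*, *Rnf2* and *Pcgf6* lay below both controls without overlap, again 3 of 10, against 21% of all genes. Both comparisons share the 2 controls, so that a control with unusual levels enters both sets of estimates.

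**Figure D2:**
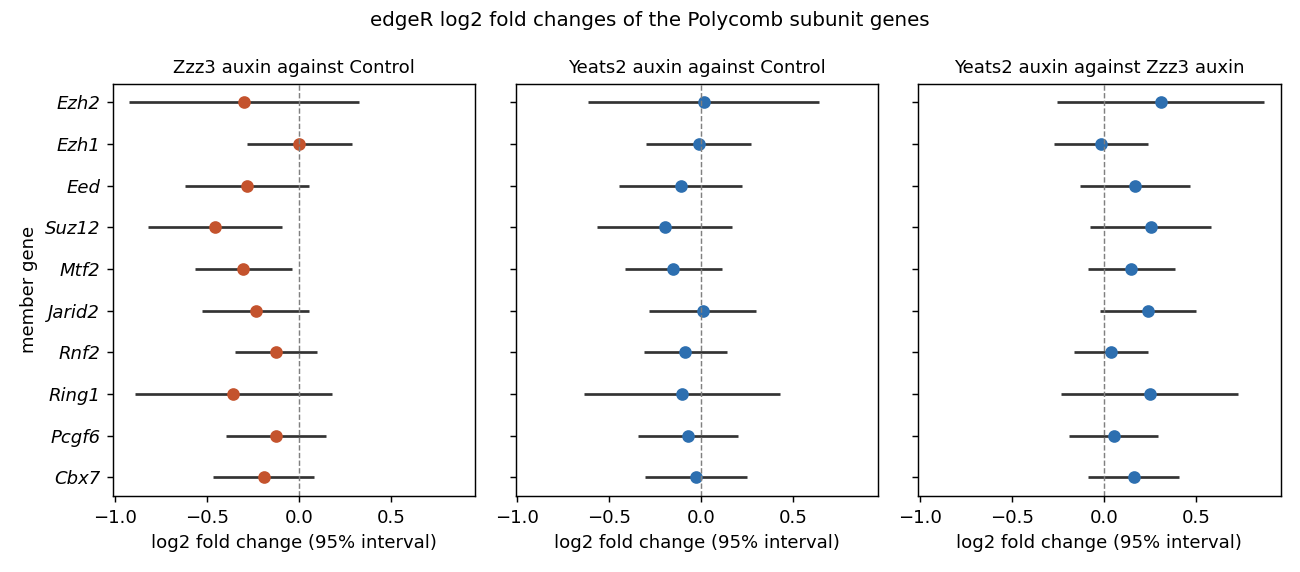
The edgeR log2 FC of each member with its 95% interval in the 3 comparisons, from a joint fit of all 8 libraries. Intervals exclude 0 only for *Suz12* and *Mtf2* after ZZZ3 depletion, and neither passed adjustment over all genes (adjusted *P* = 0.154 and 0.180).

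*Suz12* encodes the scaffold on which PRC2 assembles. It stood at 754 and 586 CPM in the controls, 474, 599 and 394 with Zzz3 auxin and 569, 584 and 599 with Yeats2 auxin. Control 1 was the highest library and Zzz3 auxin 3 the lowest, while Zzz3 auxin 2 lay above Control 2, so that the groups overlapped. Means were 670 ± 119 (SD, n = 2), 489 ± 103 (n = 3) and 584 ± 15.3 CPM (n = 3). The log2 FC of Zzz3 auxin was -0.45 (SE 0.17, 95% interval -0.82 to -0.09, edgeR unadjusted *P* = 0.0191, adjusted *P* = 0.154). This estimate was -0.26 without Control 1 and -0.31 without Zzz3 auxin 3, and -0.22 after removal of the GC trend (adjusted *P* = 0.410). It passed the threshold without Zzz3 auxin 2 (-0.62, adjusted *P* = 0.0457) and with no filter on low counts (-0.44, adjusted *P* = 0.0336), and over all alternatives the edgeR, DESeq2 and limma adjusted *P* ran from 0.0336 to 0.777. For Yeats2 auxin the log2 FC was -0.20 (SE 0.17, adjusted *P* = 0.614) and 0.0017 after removal of the GC trend. A long noncoding gene on the opposite strand, *Gm26563*, shares 178 exonic bases with *Suz12* (ENSMUSG00000017548, GRCm38 chromosome 11, 79993106 to 80034123).

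*Ezh2* and *Ezh1* encode the catalytic subunits. *Ezh2*, the more active enzyme of proliferating cells, stood at 192 and 134 CPM in the controls, 150, 171 and 75.9 with Zzz3 auxin and 150, 182 and 161 with Yeats2 auxin. Zzz3 auxin 3 lay far below the other 7 libraries. The log2 FC of Zzz3 auxin was -0.30 (SE 0.28, 95% interval -0.92 to 0.33, edgeR adjusted *P* = 0.576), and became 0.27 when Control 1 and Zzz3 auxin 3 were both left out. Its highest library exceeded its lowest by 2.52-fold, the widest span among the members. *Ezh1*, whose enzyme is the main form in many resting cells, stood at 42.6 and 46.0 CPM in the controls, 49.7, 42.5 and 40.8 with Zzz3 auxin and 45.0, 45.6 and 41.1 with Yeats2 auxin. These values interleaved, with a log2 FC of 0.0028 (95% interval -0.28 to 0.29) for Zzz3 auxin and -0.01 (-0.30 to 0.27) for Yeats2 auxin. For *Ezh2* the Yeats2 auxin estimate was 0.01 with an interval of -0.61 to 0.64, which leaves room for a change in either direction.

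*Eed* encodes the subunit that binds the methyl mark and stimulates the enzyme. Its level was 377 and 324 CPM in the controls, 310, 328 and 228 with Zzz3 auxin and 310, 346 and 318 with Yeats2 auxin. Only Zzz3 auxin 3 lay far below the rest. The log2 FC was -0.28 for Zzz3 auxin (SE 0.15, edgeR adjusted *P* = 0.309) and -0.11 for Yeats2 auxin (SE 0.15, adjusted *P* = 0.773).

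*Mtf2* and *Jarid2* encode accessory subunits that define alternative PRC2 forms. MTF2 binds unmethylated CpG-rich DNA, and JARID2 binds ubiquitinated H2A. *Mtf2* stood at 1227 and 1070 CPM in the controls, 886, 1041 and 873 with Zzz3 auxin and 1021, 1057 and 1026 with Yeats2 auxin. Every auxin library was below both controls. The log2 FC was -0.30 for Zzz3 auxin (SE 0.12, 95% interval -0.56 to -0.04, edgeR unadjusted *P* = 0.0284, adjusted *P* = 0.180) and -0.15 for Yeats2 auxin (SE 0.12, adjusted *P* = 0.590). After removal of the GC trend these estimates were -0.09 and 0.018. *Jarid2* stood at 317 and 265 CPM in the controls, 244, 281 and 217 with Zzz3 auxin and 298, 280 and 301 with Yeats2 auxin. It had the smallest unadjusted *P* among the members between both depletions, with a Yeats2 auxin level above that of Zzz3 auxin by a log2 FC of 0.24 (SE 0.12, edgeR unadjusted *P* = 0.0663, adjusted *P* = 0.779), though Zzz3 auxin 2 overlapped with the Yeats2 auxin libraries. Against Control its log2 FC was -0.23 (adjusted *P* = 0.329) for Zzz3 auxin and 0.0076 (adjusted *P* = 0.986) for Yeats2 auxin.

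*Rnf2* and *Ring1* encode RING1B and RING1A, the catalytic subunits of PRC1. *Rnf2* was the steadiest member, with 299 and 276 CPM in the controls, 263, 272 and 256 with Zzz3 auxin and 270, 269 and 273 with Yeats2 auxin. All auxin libraries were below both controls, but the highest exceeded the lowest of the 8 by only 1.17-fold. The log2 FC was -0.12 (95% interval -0.35 to 0.10) and -0.09 (-0.31 to 0.14), and turned to 0.11 and 0.098 after removal of the GC trend. *Ring1* stood at 5.38 and 8.39 CPM in the controls, 4.91, 5.90 and 5.35 with Zzz3 auxin and 5.07, 7.67 and 6.49 with Yeats2 auxin. The controls themselves spanned nearly the whole range. Its log2 FC was -0.35 (SE 0.24, edgeR adjusted *P* = 0.426) for Zzz3 auxin and -0.10 (SE 0.24, adjusted *P* = 0.874) for Yeats2 auxin.

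*Pcgf6* encodes a subunit of a variant PRC1 that acts in ESCs on germ-line genes, and *Cbx7* the chromodomain protein through which canonical PRC1 reads the methyl mark. *Pcgf6* stood at 129 and 122 CPM in the controls, 131, 114 and 100 with Zzz3 auxin and 121, 120 and 118 with Yeats2 auxin. The Yeats2 auxin libraries lay below both controls by little (log2 FC -0.07, SE 0.12, edgeR adjusted *P* = 0.824), and those of Zzz3 auxin overlapped with the controls (-0.12, SE 0.12, adjusted *P* = 0.597). *Cbx7* stood at 138 and 159 CPM in the controls, 127, 129 and 135 with Zzz3 auxin and 164, 129 and 144 with Yeats2 auxin. Its Zzz3 auxin libraries were below both controls, giving a log2 FC of -0.19 (SE 0.13 by edgeR, adjusted *P* = 0.405), and its Yeats2 auxin libraries overlapped with both other groups (-0.03, adjusted *P* = 0.938).

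Exons of 6 members overlap a gene on the opposite strand: besides *Suz12*, these are *Mtf2* with *Tmed5* (395 bases), *Eed* with *E230029C05Rik* (261), *Ezh2* with *Gm26625* (174), *Rnf2* with *Trmt1l* (158) and *Cbx7* with *Apobec3* (100). The library kit keeps strand, but whether counting used strand is not given in the sources used here. No member overlaps a gene on its own strand.

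The extremes of the members fell mostly in the libraries that stand apart in base composition. Control 1 held the highest value of 6 of the 10 members, and Zzz3 auxin 3 the lowest of 8. The share of all genes with an extreme in these libraries was not counted. Relative to the control mean, the median log2 level of the members was -0.20, -0.11 and -0.36 in Zzz3 auxin 1, 2 and 3, and -0.09, -0.06 and -0.08 in the Yeats2 auxin libraries. After removal of the GC and length trend these medians were -0.11, -0.04 and -0.41, and -0.03, 0.07 and -0.03. Zzz3 auxin 3 thus stayed lowest after the correction, and the cause was not tested. The members differ in base composition, from 40.8% GC in *Suz12*, 41.3% in *Rnf2* and 41.9% in *Mtf2* to 57.3% in *Cbx7* and 59.2% in *Ring1*. Removal of the GC and length trend raised the Zzz3 auxin estimates of the GC-poor members and lowered those of the GC-rich ones. *Rnf2* and *Pcgf6* then had estimates above 0 (0.11 and 0.025), *Ezh2* and *Eed* moved to -0.15 and -0.14, and *Jarid2* to -0.30 (unadjusted *P* = 0.0267, edgeR adjusted *P* = 0.227).

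*Cbx7* and *Ring1* moved farthest downward. Corrected *Cbx7* levels were 178 and 162 CPM in the controls, 116, 133 and 108 with Zzz3 auxin and 160, 125 and 145 with Yeats2 auxin. Zzz3 auxin was then wholly below Control, with a log2 FC of -0.52 (unadjusted *P* = 0.0013, edgeR adjusted *P* = 0.0717), which did not pass the threshold. Corrected *Ring1* levels were 7.24 and 8.52 CPM in the controls, 4.52, 6.14 and 3.97 with Zzz3 auxin and 5.07, 7.21 and 6.71 with Yeats2 auxin. Its log2 FC was -0.69 for Zzz3 auxin (unadjusted *P* = 0.0097, edgeR adjusted *P* = 0.150). For Yeats2 auxin the corrected estimates of *Cbx7* and *Ring1* were -0.25 and -0.32. Over the 10 members the corrected median was -0.14 after ZZZ3 depletion, with 8 below 0 and 0 called (195 genes in all), and -0.0032 after YEATS2 depletion, with 5 below 0 and 0 called (144 genes in all). With Control 1 and Zzz3 auxin 3 both left out and no correction, the Zzz3 auxin median was -0.03, with *Cbx7* at -0.30, *Ring1* at -0.62 and *Suz12* at -0.12, and 0 members were called (18 genes in all).

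**Figure D3:**
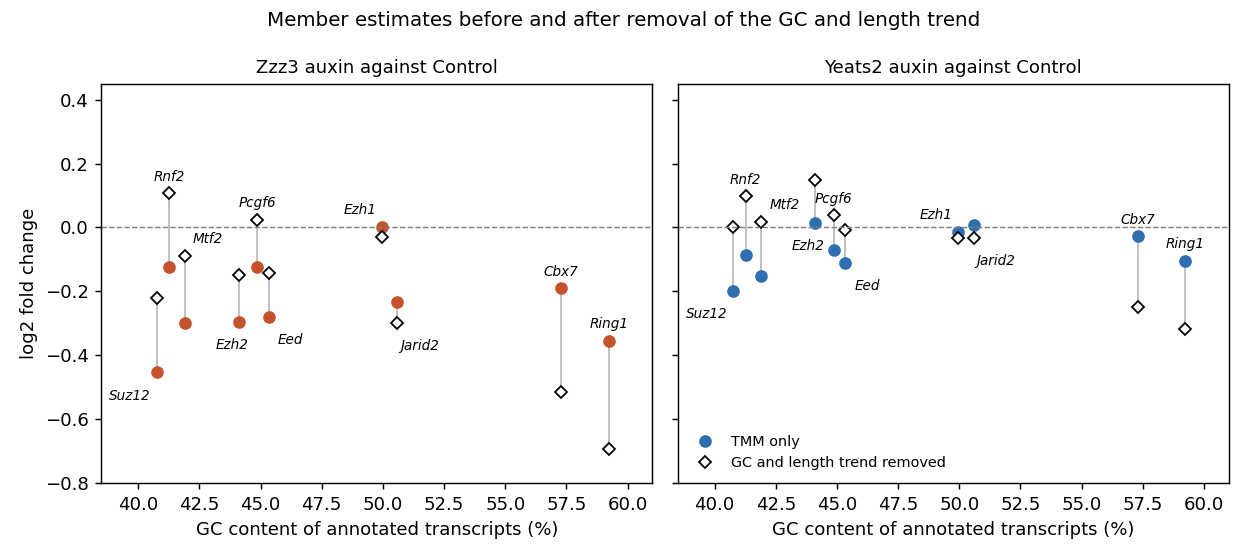
Each member's log2 FC against the GC content of its annotated transcripts (%), with filled circles for TMM scaling alone and open diamonds after removal of each library's GC and length trend, for Zzz3 auxin and Yeats2 auxin against Control. GC-poor members such as *Suz12* (-0.45 to -0.22 in Zzz3 auxin) moved up and GC-rich members such as *Cbx7* (-0.19 to -0.52) moved down.

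Ratios within a library are independent of its scaling. The *Ezh2* to *Ezh1* ratio per kb was 5.01 and 3.24 in the controls, 3.37, 4.47 and 2.07 with Zzz3 auxin and 3.70, 4.45 and 4.36 with Yeats2 auxin. The *Rnf2* to *Ring1* ratio was 43.7 and 25.8, then 42.1, 36.2 and 37.6, then 41.8, 27.6 and 33.1 in the same order. Neither paralog ratio separated the groups before correction. After removal of the GC trend the log2 difference of *Ezh2* to *Ezh1* from Control was -0.17 for Zzz3 auxin and 0.19 for Yeats2 auxin. That of *Rnf2* to *Ring1* was 0.82 and 0.42 (exact permutation test, two-sided, *P* = 0.2 for each). Such a *P*, the smallest possible, is reached only when the groups do not overlap. The *Mtf2* to *Jarid2* ratio, which sets the accessory subunits of both PRC2 forms against each other, was 6.60 and 6.88 in the controls, 6.18, 6.31 and 6.85 with Zzz3 auxin and 5.85, 6.43 and 5.82 with Yeats2 auxin. All Yeats2 auxin libraries were below both controls, by a mean log2 difference of -0.16 (exact permutation test, two-sided, *P* = 0.2, the smallest that 3 against 2 libraries allow). After removal of the GC trend this difference was 0.042. The ratio of *Cbx7* to *Pcgf6* was 0.832 and 1.01 in the controls, 0.751, 0.877 and 1.04 with Zzz3 auxin and 1.05, 0.835 and 0.944 with Yeats2 auxin. These uncorrected values overlapped fully. After removal of the GC trend its log2 difference from Control was -0.54 for Zzz3 auxin and -0.29 for Yeats2 auxin (exact permutation test, *P* = 0.2 for each). Adjusted over the 12 tests of uncorrected ratios, the exact permutation *P* ranged from 0.96 to 1, and no test could have passed 0.05.

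**Figure D4:**
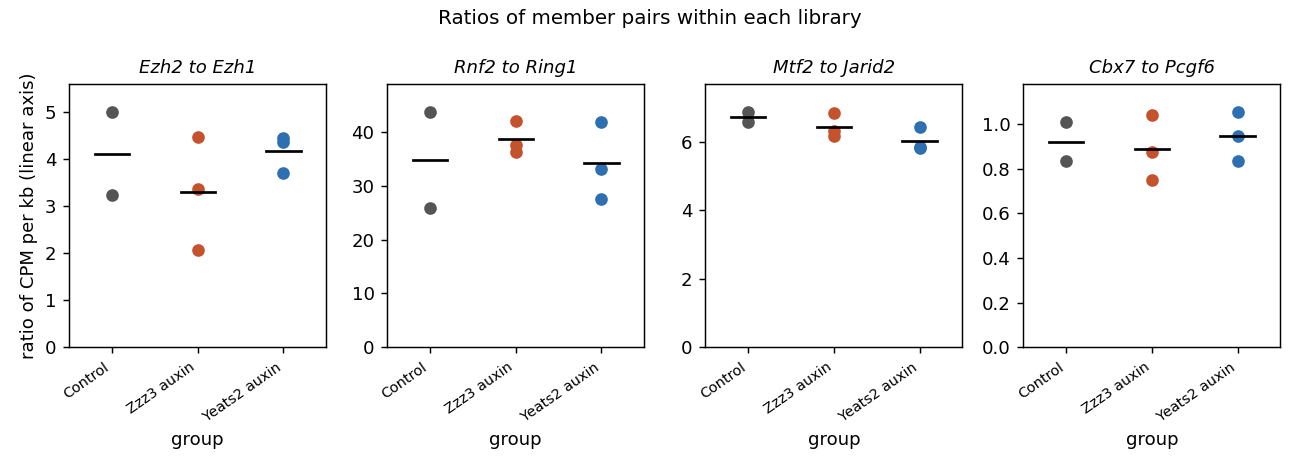
Ratios of CPM per kb for 4 pairs of members in each library (linear axes from 0), with a bar for the group mean. In these uncorrected values only the *Mtf2* to *Jarid2* ratio has a group wholly apart from another, with Yeats2 auxin (5.82 to 6.43) below Control (6.60 and 6.88).

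The remaining machinery was read in the same fit. Of 9 other PRC2 subunits edgeR called 0 after either depletion, 3 and 2 having an unadjusted *P* < 0.05, with a median log2 FC of -0.08 for Zzz3 auxin and -0.04 for Yeats2 auxin. *Rbbp4*, a histone-binding subunit that PRC2 shares with other complexes, had the smallest adjusted *P* of this list for Zzz3 auxin. Its level was 834 and 693 CPM in the controls, 491, 625 and 475 with Zzz3 auxin and 619, 589 and 620 with Yeats2 auxin. Every auxin library was below both controls, and the log2 FC was -0.53 (SE 0.14, edgeR adjusted *P* = 0.0838) and -0.33 (SE 0.14, adjusted *P* = 0.311). Both shrank after removal of the GC trend (-0.40 and -0.22), without both libraries that stand apart (-0.30 and -0.17) and, for Yeats2 auxin, without Control 1 (-0.19). DESeq2 called it, as the 1 gene of this list, for Zzz3 auxin (adjusted *P* = 0.0231), and edgeR did so without Zzz3 auxin 2 (-0.65, adjusted *P* = 0.0307). *Phf19*, a relative of *Mtf2*, was low throughout, at 1.73 and 2.00 CPM in the controls, 0.499, 0.880 and 1.14 with Zzz3 auxin and 1.08, 0.905 and 0.633 with Yeats2 auxin. Here too the groups did not overlap with Control, but neither log2 FC passed (-1.19, edgeR adjusted *P* = 0.112, and -1.09, adjusted *P* = 0.205). *Ezhip*, which encodes an inhibitor of PRC2, was at 0.444 and 0.408 CPM in the controls and 1.53, 0.623 and 1.07 with Zzz3 auxin (log2 FC 1.32, SE 0.49, adjusted *P* = 0.157).

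Of 28 other PRC1 subunits edgeR called 0, with medians of 0.12 and -0.04, and DESeq2 called 2 for Zzz3 auxin, *Bcor* and *Cbx6*. At an unadjusted *P* < 0.05 in edgeR, 6 were higher and 2 lower after ZZZ3 depletion, where 11.6% and 10.1% of all genes were, and 4 differed after YEATS2 depletion. *Cbx6*, a relative of *Cbx7*, stood at 95.7 and 93.6 CPM in the controls, 66.6, 74.1 and 67.8 with Zzz3 auxin and 83.0, 84.3 and 73.4 with Yeats2 auxin. The Zzz3 auxin value was the lower (log2 FC -0.45, SE 0.11, edgeR adjusted *P* = 0.0791), and by -0.80 after removal of the GC trend (adjusted *P* = 0.0323). *Cbx6* shares exons with *Npcd* on the same strand. *Bcor*, a corepressor of variant PRC1, stood at 28.0 and 27.8 CPM in the controls and 62.9, 42.1 and 35.9 with Zzz3 auxin. Its log2 FC was 0.75 (SE 0.21, edgeR adjusted *P* = 0.0921), and 0.60 after removal of the GC trend. It was called without Zzz3 auxin 3 (0.92, edgeR adjusted *P* = 0.0348). For Yeats2 auxin the smallest *P* was that of *Kdm2b*, which encodes the CpG-binding protein that brings variant PRC1 to promoters (log2 FC 0.54, SE 0.16, edgeR adjusted *P* = 0.166). It passed with only the compared groups in the fit (0.56, adjusted *P* = 0.0491) and with no filter on low counts (0.56, adjusted *P* = 0.0228). Its log2 FC ranged from 0.38 to 0.72 when each library was left out and from 0.35 to 0.56 under the other alternatives. *Kdm2b* stood at 45.3 and 57.1 CPM in the controls, 55.7, 67.3 and 76.6 with Zzz3 auxin and 70.0, 71.9 and 81.4 with Yeats2 auxin. It shares exons with *Gm44574* on the same strand.

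Enzymes that act against Polycomb gave no call in the joint fit. Among 11 subunits of PR-DUB, which removes ubiquitin from H2A, the medians were 0.06 and -0.12, and edgeR called 0, with 0 at an unadjusted *P* < 0.05. Among 15 opposing enzymes and cofactors, chiefly H3 demethylases of the KDM6 family and subunits of activating methyltransferase complexes, the medians were -0.0028 and -0.11, and edgeR called 0, with 1 and 0 at an unadjusted *P* < 0.05. DESeq2 called 0 genes of both lists. *Kmt2d*, an enhancer methyltransferase, came closest, at 59.8 and 68.9 CPM in the controls and 98.2, 66.4 and 151 with Zzz3 auxin. Its log2 FC of 0.70 (SE 0.27, edgeR adjusted *P* = 0.176) was 0.19 after removal of the GC trend. It passed without Zzz3 auxin 2 (0.96, edgeR adjusted *P* = 0.0359) and with no filter on low counts (0.71, adjusted *P* = 0.000659). The value of Zzz3 auxin 3 stood far above the rest.

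Target genes of Polycomb were mostly silent. Of 39 *Hox* genes 13 passed the filter, and the 39 summed to 23.7 to 25.1 CPM in Control, 26.8 to 34.2 in Zzz3 auxin and 19.7 to 26.0 in Yeats2 auxin. None of the 13 was called by edgeR or DESeq2 in either comparison. By edgeR 2 and 0 had an unadjusted *P* < 0.05 (21.7% and 14.6% of all genes did), with median log2 FCs of 0.11 and -0.11. *Hoxd8*, a trunk patterning gene, had 0.395 and 0.680 CPM in the controls, 1.30, 0.806 and 1.20 with Zzz3 auxin and 0.309, 0.253 and 0.435 with Yeats2 auxin. The log2 FC of 1.01 for Zzz3 auxin and of -0.70 for Yeats2 auxin did not pass (edgeR adjusted *P* = 0.200 and 0.515). Without Control 1 they were 0.68 and -1.03, and without Control 2 they were 1.47 and -0.25.

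Of 21 other developmental and cell cycle targets 10 passed the filter, and edgeR called 2, both higher after ZZZ3 depletion (0.496% of all genes were called higher). The directions were mixed. With Zzz3 auxin 6 log2 FCs were above 0 and 4 below (median 0.22), and with Yeats2 auxin 3 and 7 (median -0.23). The list was chosen with earlier results of these data known, so these 2 calls are no independent evidence about Polycomb targets. After YEATS2 depletion edgeR called 0, with 3 at an unadjusted *P* < 0.05 (14.6% of all genes), and DESeq2 called the same 2 genes, *Cdkn2b* and *Neurod1*. *Cdkn2b* encodes p15, an inhibitor of cyclin-dependent kinases, and its promoter is printed above. It stood at 2.22 and 1.95 CPM in the controls, 7.25, 6.56 and 6.16 with Zzz3 auxin and 4.56, 4.99 and 2.93 with Yeats2 auxin. Zzz3 auxin was highest, Yeats2 auxin intermediate and Control lowest, with no overlap between the groups. The log2 FC was 1.68 for Zzz3 auxin (SE 0.27, edgeR adjusted *P* = 0.0248) and 1.00 for Yeats2 auxin (SE 0.27, adjusted *P* = 0.136). The difference between both depletions was -0.68 (SE 0.22, unadjusted *P* = 0.0088, edgeR adjusted *P* = 0.779). *Cdkn2b* kept its Zzz3 auxin call with DESeq2 (adjusted *P* = 1.26e-05) and after removal of the GC trend (edgeR adjusted *P* = 0.0310), and lost it without Control 1 (0.293), Control 2 (0.0917), Zzz3 auxin 1 (0.0575) or Yeats2 auxin 1 (0.0663), and with Control 1 and Zzz3 auxin 3 both left out (0.135). Its log2 FC stayed at 1.59 to 1.77 when each library was left out and at 1.47 to 1.83 under the other alternatives.

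*Neurod1* encodes a transcription factor of neuronal differentiation. It stood at 1.73 and 1.09 CPM in the controls, 4.22, 4.03 and 4.95 with Zzz3 auxin and 3.06, 4.23 and 4.31 with Yeats2 auxin. Both auxin groups lay above both controls. The log2 FC was 1.64 for Zzz3 auxin (SE 0.28, edgeR adjusted *P* = 0.0368) and 1.46 for Yeats2 auxin (SE 0.28, adjusted *P* = 0.0558), which became 1.61 and passed after removal of the GC trend (adjusted *P* = 0.0235). Its Zzz3 auxin call was lost with the replicate number as a block (edgeR adjusted *P* = 0.0719), and without Control 1 (0.277), Control 2 (0.102), Zzz3 auxin 1 (0.0618), Yeats2 auxin 1 (0.0673), Yeats2 auxin 2 (0.0645) or Yeats2 auxin 3 (0.0853). Its log2 FC ranged from 1.34 to 2.00 when each library was left out and from 1.56 to 1.93 under the other alternatives. Exons of *Neurod1* overlap *Cerkl* on the same strand and *Gm26755* on the other. Reads within such an overlap are left out as ambiguous, for *Gm26755* only if counting ignored strand. *Eomes*, a mesendoderm regulator, went the other way without passing, at 9.77 and 8.30 CPM in the controls, 6.64, 6.89 and 6.16 with Zzz3 auxin and 5.18, 5.07 and 7.20 with Yeats2 auxin (log2 FC -0.46 and -0.64, edgeR adjusted *P* = 0.224 and 0.193).

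**Figure D5:**
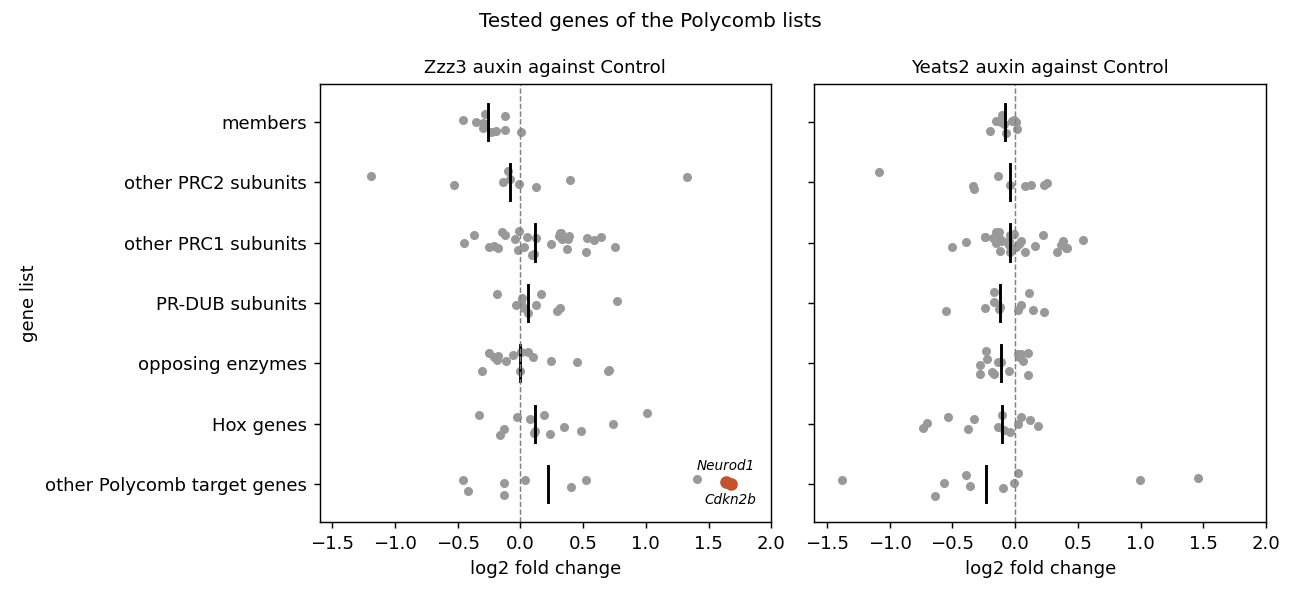
The edgeR log2 FC of each tested gene of 7 Polycomb lists (1 point per gene, spread vertically for legibility), with a bar for the list median and coloured points for genes called at adjusted *P* < 0.05. *Cdkn2b* (1.68) and *Neurod1* (1.64) were the only listed genes called after ZZZ3 depletion, and 0 were called after YEATS2 depletion.

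The profiles most like those of the members were sought by the root mean square difference of centred log2 CPM over the 8 libraries. The 5552 genes searched averaged 10 CPM or more, had no exon overlap with another gene and were not pseudogenes. *Suz12*, the member with the smallest *P* for Zzz3 auxin, was most like *Gmcl1* (0.029), *Vkorc1l1* (0.036) and *Pja2* (0.039). *Gmcl1* had 64.9 and 51.3 CPM in the controls, 41.1, 54.0 and 34.5 with Zzz3 auxin and 49.5, 53.4 and 53.7 with Yeats2 auxin, with Control 1 highest and Zzz3 auxin 3 lowest, as for *Suz12*. *Mtf2*, the member with the smallest *P* for Yeats2 auxin, was most like *Armt1* (0.039), *Pbdc1* (0.040) and *Zranb2* (0.040).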

How the data were processed

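Ribodepleted total RNA (polyA RNA per the labels) of 8 ESC libraries was sequenced with a stranded kit. The authors deposited raw counts per gene, made with cutadapt, STAR 2.5.3a on mm10 and HTSeq 0.6.1p1 in union mode, with ambiguous reads left out and no normalization. The 5 tallies of unassigned reads were removed. GENCODE (GRCm38) gave symbols for 55141 genes, and 260 had none. Counts were fitted with edgeR 4.0.16 (R 4.3.3): filterByExpr, TMM scaling, 1 mean per group over all 8 libraries, robust quasi-likelihood test, two-sided, Benjamini-Hochberg adjustment over 17532 genes, threshold 0.05. SE is the size of the log2 FC over the square root of F. CPM is TMM-scaled. The GC and length trend was removed by lowess (span 0.3) through offsets. Alternatives were DESeq2 1.42.0, limma-voom with sample quality weights (limma 3.58.1) and median-of-ratios scaling. Further ones were no filter or a mean of at least 1 CPM, only the compared groups, the replicate number as a block, and leaving out libraries. The model fits were tested on simulated data. Depth makes counting error small except for weakly expressed genes, and the 2 controls limit the precision.

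Members and lists were chosen with earlier results of these data known. Besides members, genes are named if called, or if among the 3 smallest *P* of their list against Control (not all of these are named), and profiles by likeness to the member with the smallest adjusted *P*. Promoter windows are from RefSeq (GRCm38.p6), which matched all 10 members. No pair of libraries within a group was a duplicate (7 pairs, chi-square per gene 3.69 to 49.5). Yeats2 auxin 1 and 3 were by far the closest pair (3.69), and the other pairs gave 21.0 to 49.5. Deviations of libraries with the same replicate number correlated at -0.18 to 0.20, and those with different numbers at -0.22 to 0.22. They were taken from the mean of groups of 2 or 3 libraries, so that the 2 controls mirror each other. Whether the numbers pair the libraries cannot be told from this.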

Additional observations from a re-analysis of the deposited data

How the results depend on the processing

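Over the alternatives, the members kept direction and side of the threshold in 490 of 540 results. The only member called under any of them was *Suz12* for Zzz3 auxin (1 with no filter on low counts, 0 to 1 when leaving out each library). Genes called for Zzz3 auxin, 132 in the joint fit, numbered 1079 with DESeq2, 1542 with no filter, 0 with only the 2 groups (2606 at an unadjusted *P* < 0.05), 42 with the replicate block, 18 without Control 1 and Zzz3 auxin 3, 82 with limma-voom and 0 to 841 when leaving out each library. For Yeats2 auxin, 78 became 398, 553, 454, 32, 8, 375 and 0 to 217 in the same order, and 144 after the GC and length correction. Between both depletions, 0 became 3 with DESeq2, 117 with no filter, 1 without both libraries, 1 with limma-voom and 0 to 1 when leaving out each library. The replicate block called 0 members. The causes of these differences were not tested.

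The following member estimates changed sign. For Zzz3 auxin the corrected values were -0.029 (*Ezh1*), 0.11 (*Rnf2*; 0.10 with block and correction) and 0.025 (*Pcgf6*; 0.057), and without both libraries 0.27 (*Ezh2*) and 0.014 (*Pcgf6*). For Yeats2 auxin they were 0.0017 (*Suz12*), -0.032 (*Jarid2*), 0.018 (*Mtf2*), 0.098 (*Rnf2*) and 0.038 (*Pcgf6*) after correction, 0.013 (*Ezh1*), 0.063 (*Eed*), 0.056 (*Suz12*), 0.031 (*Mtf2*), 0.094 (*Rnf2*) and 0.074 (*Pcgf6*) with block and correction, and 0.015 (*Eed*) and 0.0093 (*Suz12*) without both libraries. *Ezh1* was 0.0098 with no filter, 0.0032 with only the 2 groups and 0.037 with the replicate block, and limma-voom gave -0.016 (*Ezh2*) and 0.024 (*Cbx7*). Between both depletions *Rnf2* was -0.0096 after correction and -0.0097 with block and correction, and *Pcgf6* -0.030 without both libraries. Leaving out each library, the ranges that crossed 0 were, for Zzz3 auxin, -0.071 to 0.070 (*Ezh1*) and -0.64 to 0.0069 (*Ring1*), for Yeats2 auxin, -0.068 to 0.047 (*Ezh1*), -0.22 to 0.30 (*Ezh2*), -0.21 to 0.00097 (*Eed*), -0.11 to 0.14 (*Jarid2*), -0.39 to 0.26 (*Ring1*) and -0.12 to 0.075 (*Cbx7*), and between both depletions, -0.068 to 0.073 (*Ezh1*) and -0.033 to 0.15 (*Pcgf6*).

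The Zzz3 auxin calls of *Cdkn2b* and *Neurod1* were also lost with only the 2 groups (edgeR adjusted *P* = 0.142 and 0.169) and with limma-voom (adjusted *P* = 0.0603 and 0.0760). Calls were gained in 21 results of the other listed genes: with no filter on low counts for *Rbbp4*, *Bcor* and *Kmt2d* (Zzz3 auxin) and *Kdm2b*, *Cdkn2b* and *Neurod1* (Yeats2 auxin), and otherwise as given for *Rbbp4*, *Cbx6*, *Bcor*, *Kmt2d* and *Kdm2b* above and for *Cdkn2b* (1.01 with DESeq2, adjusted *P* = 0.0403) and *Neurod1* for Yeats2 auxin, whose 7 gained calls had an edgeR, DESeq2 or limma adjusted *P* of at most 0.0488. Of the other listed genes, *Hcfc1* (-0.027) and *Mysm1* (0.0015) changed sign for Zzz3 auxin with block and correction, and *Bap1* for Yeats2 auxin (-0.014 after correction, -0.0069 with the block as well). Log2 ratios against Control that changed sign were *Rnf2* to *Ring1* for Yeats2 auxin (-0.0059 on log2(CPM + 1)), *Mtf2* to *Jarid2* (0.21 for Zzz3 auxin and 0.042 for Yeats2 auxin after correction) and *Cbx7* to *Pcgf6* for Yeats2 auxin (-0.29 after correction). Leaving out each library, *Ezh2* to *Ezh1* ranged from -0.27 to 0.36 for Yeats2 auxin, *Rnf2* to *Ring1* from -0.18 to 0.58 for Zzz3 auxin and -0.38 to 0.38 for Yeats2 auxin, and *Cbx7* to *Pcgf6* from -0.19 to 0.082, -0.099 to 0.18 and, between both depletions, -0.021 to 0.21. With 2 controls, depth limits only weak genes such as *Ring1*, the *Hox* genes, *Phf19*, *Ezhip* and the called targets *Cdkn2b* and *Neurod1*. In the controls *Cdkn2b* and *Neurod1* averaged 2.09 and 1.41 CPM, below *Ring1* with 6.88.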
